A study of Danio rerio with 12 samples.

Results

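The long arm of zebrafish (Danio rerio) chromosome 4 was described here through its 1129 listed genes, of 32349 in all. A gene was a member when its annotated start lay at or above base 30000000 of chromosome 4. The first member started at 30045493 and the last at 78074645. The 718 genes of chromosome 4 that start below this boundary are called the short arm. Coordinates are those of the deposited tables, whose genome build is not named in the sources at hand.

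This arm is known as a repeat-rich, late-replicating stretch of the zebrafish genome in which gene families have expanded in tandem. The largest families encode C2H2 zinc finger proteins, which bind DNA, and fish-type NLR proteins, intracellular receptors of the innate immune system built around a nucleotide-binding NACHT domain. Many fish NLR proteins also end in a SPRY (B30.2) domain, a protein-binding module shared with TRIM proteins. In some zebrafish strains the arm is also linked to sex determination.

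Each library held the RNA of 25 pooled whole larvae, collected 3 days after fertilization (3 dpf). The groups of 3 libraries were control larvae (A81, A82, A83), Tg(ifih1_mut) larvae, here ifih1mut (A75, A76, A77), control larvae with poly I:C (A78, A79, A80) and ifih1mut larvae with poly I:C (A72, A73, A74). Poly I:C is a synthetic double-stranded RNA, and ifih1 encodes MDA5, a cytoplasmic sensor of such RNA. The sources used here do not give the promoter of the transgene, the mutation, the number of lines, or how poly I:C was delivered. Whether different clutches went into the 3 pools is not stated either. The p-values therefore reflect the spread among these libraries, which may be technical.

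Library totals ran from 31876869 to 100839015 counts. CPM are counts scaled to the TMM-adjusted library total. The entry listed as ifih1, on chromosome 9, stood at 2.34 ± 0.376 CPM in control and 14.0 ± 2.99 in ifih1mut larvae (SD, n = 3). With poly I:C it stood at 2.06 ± 0.173 and 25.3 ± 7.90. Reads of the transgene and of the chromosome 9 gene cannot be told apart in these counts. Libraries also fell into 3 sets of 4 by the position of the library number within its group. Set 1 was A81, A75, A78 and A72, set 2 was A82, A76, A79 and A73, and set 3 was A83, A77, A80 and A74. Over all genes at a mean of at least 1 CPM, each of the 12 libraries was nearest to a library of its own set. The labels do not name these sets, each holds 1 library of every group, and they were noticed in these data.

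The long arm held 366 of the 686 genes listed with a zf-C2H2 domain (53.4%) and 222 of the 352 with a NACHT domain (63.1%). It also held 45 of the 168 genes listed with a SPRY domain (26.8%). The short arm held 14, 6 and 0 such genes. These classes rest on the deposited domain column alone, which also lists NACHT for trpm2, a gene named as a cation channel. By the gene descriptions alone the arm would look different, because 682 of the 1129 genes carried only a clone name and 112 had no description. Among the NACHT genes, 216 carried a clone name and 1 was described as an NLR. Zinc fingers were better named, with 151 of 366 described as such. Of 50 snRNA genes in the tables, 28 lay on the long arm, and 1 of them passed the filter on low counts.

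Related copies can make single genes hard to count apart. Descriptions were shared by 163 long-arm genes, over 70 different descriptions, and 18 of them carried the description si:dkey-16p6.1. Similarity of their sequences was not measured. On the arm 442 genes (39.1%) overlapped another gene of the chromosome, against 211 (29.4%) on the short arm. The sources used here do not say how reads that match several copies were counted. Values of single NACHT, SPRY and zinc finger genes therefore need caution, since reads may be shared where copies are alike.

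Expression per gene was low across most of the arm. Levels are given as CPM per kilobase of the deposited gene length, as the mean of 12 libraries. The median of the 750 tested long-arm genes was 0.428 CPM per kb, against 4.60 for 592 tested short-arm genes and 3.30 for all 26508 tested genes. The filter on low counts kept 66.4% of the listed long-arm genes and 82.5% of the short-arm genes. Over all listed genes the medians were 0.206 and 2.93 CPM per kb. On the long arm 122 genes (10.8%) had at most 10 counts over the 12 libraries, against 33 (4.60%) on the short arm. By domain, the median of tested long-arm genes was 0.458 CPM per kb for 279 zf-C2H2 genes, 0.264 for 25 SPRY genes and 0.142 for 180 NACHT genes.

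**Figure D1:**
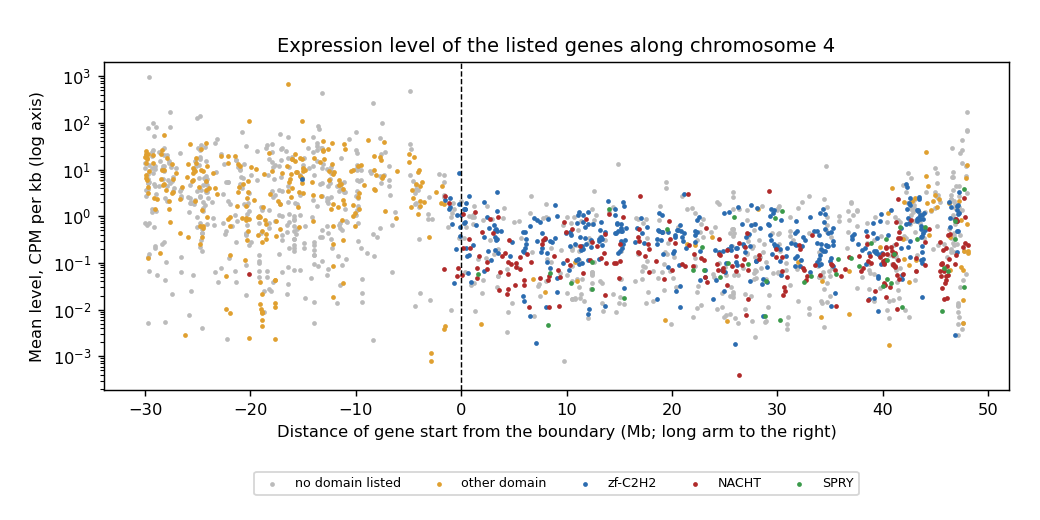
Mean expression level (CPM per kb, log axis) of each listed chromosome 4 gene against the distance of its start from the boundary in Mb, coloured by domain. Levels are lower to the right of the boundary, with a fall from a median of 2.93 CPM per kb over listed short-arm genes to 0.206 over listed long-arm genes, and the highest long-arm points lie near the end of the arm.

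Genes just beside the boundary overlapped in level. The last 3 genes below it were znf1111, an unnamed assembled gene and znf1128, at 0.382, 2.10 and 1.07 CPM per kb. The first 3 above it were the NACHT genes si:rp71-7l19.2, si:dkey-265e15.5 and si:dkey-265e15.2, at 0.0564, 0.205 and 1.12 CPM per kb. Zinc finger genes had thus already begun below the boundary.

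The far end of the arm was different. Of the 14 long-arm genes at or above 10 CPM per kb, 12 started at or beyond base 70000000. The 303 genes there had a median of 0.384 CPM per kb, against 0.175 for the 826 genes before it. The highest was CCT2 (78022547 to 78026285), which encodes a subunit of the cytosolic chaperonin, at 171 CPM per kb. A second entry, cct2 (78008298 to 78009682), stood at 66.0, and reads may be shared between them. Next to them zgc:85975 stood at 69.6 CPM per kb. The end also held RAB21, a small GTPase of endosomal traffic, at 23.8, and slco1d1, an organic anion transporter gene, at 23.1. The highest-ranked zinc finger gene was si:cabz01071912.2 at 4.81 CPM per kb, and the highest-ranked NACHT gene was si:dkey-105i14.1 at 3.50.

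Without poly I:C, no long-arm gene was called between genotypes. At an edgeR quasi-likelihood adjusted p under 0.05, 0 of 750 were called, against 0.00377% of all tested genes. DESeq2 also called 0, and at an unadjusted edgeR p under 0.05 there were 6 (0.8%, against 0.509% of all tested genes). AL935186.9 had the smallest unadjusted p. Its CPM was 15.5, 16.9 and 10.4 in control and 6.38, 8.78 and 7.61 in ifih1mut larvae. The groups did not overlap, but the log2 fold change of -0.91 (SE 0.204) had an edgeR adjusted p of 1.

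Poly I:C in control larvae also gave 0 calls by edgeR and by DESeq2, against 0% of all tested genes, with 11 long-arm genes (1.47%) at an unadjusted p under 0.05, against 1.38% of all tested genes. The smallest p belonged to abcd2, a peroxisomal fatty acid transporter gene. It stood at 1.22, 1.20 and 1.54 CPM in control and 0.742, 0.450 and 0.422 with poly I:C. The log2 fold change was -1.29 (SE 0.325), and the edgeR adjusted p was 1.

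Among poly I:C-stimulated larvae, 2 long-arm genes were higher in ifih1mut than in control (0.267% of 750, against 0.6% of all tested genes). Both were NACHT genes. The comparison of ifih1mut larvae with and without poly I:C called 5 genes, all higher with poly I:C (0.667%, against 0.69% of all tested genes). These were the same 2 NACHT genes, parp11 and a pair of ms4a17a genes. Both shares were close to or under the background, and both comparisons share the 3 stimulated ifih1mut libraries.

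BX927130.3 (71641813 to 71677558) is annotated as an unprocessed pseudogene with a NACHT domain. In stimulated ifih1mut larvae it stood at 1.98, 1.50 and 3.52 CPM. In stimulated control larvae it stood at 0.525, 0.480 and 0.572, and in unstimulated ifih1mut larvae at 0.661, 0.730 and 0.764. All 3 stimulated ifih1mut libraries lay above all 9 others. The log2 fold change was 2.14 (SE 0.336, edgeR adjusted p = 0.0140) against stimulated control and 1.69 (SE 0.322, edgeR adjusted p = 0.0408) against unstimulated ifih1mut larvae.

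The second NACHT gene, si:ch211-22k7.9 (39158005 to 39186901), was also higher there. It stood at 1.43, 0.880 and 2.14 CPM in stimulated ifih1mut larvae. The other 9 libraries lay between 0.331 and 0.472 CPM. Its log2 fold change was 1.91 (SE 0.339, edgeR adjusted p = 0.0297) between stimulated genotypes and 1.92 (SE 0.332, edgeR adjusted p = 0.0234) between ifih1mut groups.

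The gene parp11 (71989418 to 72002734) encodes a mono-ADP-ribosyltransferase with a WWE domain. It overlaps 1 other gene. It stood at 0.494, 0.558 and 1.41 CPM in stimulated and 0.0575, 0.0688 and 0.0459 in unstimulated ifih1mut larvae. The stimulated libraries lay above the others, but the lower values rest on few counts. The log2 fold change was 3.77 (SE 0.615, edgeR adjusted p = 0.0162). Against stimulated control larvae, at 0.155, 0.0900 and 0.0602 CPM, it was 2.98 (SE 0.607, edgeR adjusted p = 0.0656), which missed the threshold.

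The ms4a17a genes form a cluster of 14 between 76509294 and 76785895, a family chosen after its values were seen. MS4A proteins span the membrane several times, and in mammals some mark immune cells. All 14 were tested, and 2 rose with poly I:C in ifih1mut larvae. ms4a17a.1 stood at 0.374, 0.633 and 0.565 CPM without and 1.27, 1.70 and 2.51 with poly I:C (log2 fold change 1.78, SE 0.311, edgeR adjusted p = 0.0252). One of the pair of entries named ms4a17a.10, ENSDARG00000093546, stood at 1.75, 2.92 and 3.12 without and 5.72, 5.46 and 7.52 with it (log2 fold change 1.25, SE 0.229, edgeR adjusted p = 0.0306). The groups did not overlap for either gene. Over the 14 genes the median log2 fold change was 0.83, with 11 positive, beside -0.012 over all tested genes. In control larvae the same family had a median of 0.16, also with 11 positive.

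**Figure D2:**
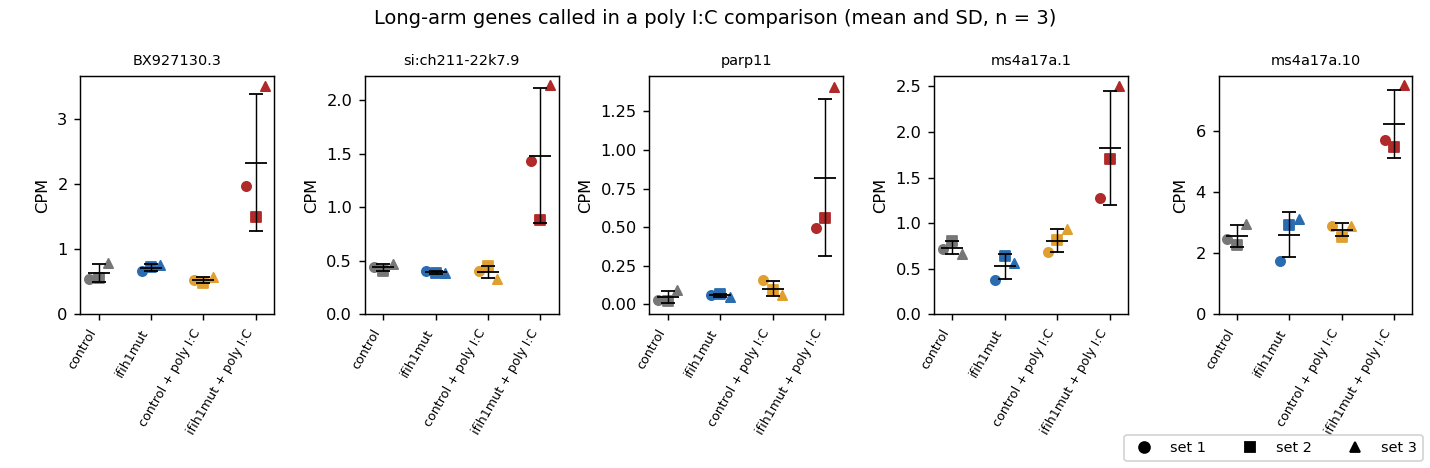
CPM in each library of the 5 long-arm genes called in a poly I:C comparison, by group, with the mean and SD (n = 3) in black and the library set as the marker shape. In every panel the 3 stimulated ifih1mut libraries lie above the other 9.

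These calls were not stable to the loss of a library. Between stimulated genotypes, the call of BX927130.3 was lost without A78, A79 or A80 (highest edgeR adjusted p 0.103), and that of si:ch211-22k7.9 without any library but A73 (highest 0.182). Between ifih1mut groups, parp11 was lost without A74, A75, A76 or A77 (highest 0.130), and ms4a17a.1 without these or A73 (highest 0.130). There si:ch211-22k7.9 was lost without A72, A74, A75, A76 or A77 (highest 0.139). BX927130.3 was lost without any library but A73 (highest 0.200), and ms4a17a.10 without any but A73, A82 or A83 (highest 0.167). The log2 fold changes kept their sign, from 1.05 for ms4a17a.10 to 4.05 for parp11. With the library set as a block the comparisons called 6 and 8 long-arm genes (0.8% and 1.07%), against 0.883% and 1.04% of all tested genes. With a block of 6 library pairs, formed by set and stimulation after seeing the data, the first called 10 of 750, against 1.26% of all tested genes.

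The effect of poly I:C differed between genotypes for 0 of 750 long-arm genes by edgeR, and 0 by DESeq2, against 0.155% of all tested genes, with 26 (3.47%) at an unadjusted p under 0.05, against 2.04% of all tested genes.

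As a class, NACHT genes lay higher in stimulated ifih1mut larvae, in small steps that single-gene tests seldom reached. Of 180 tested, 146 had a positive log2 fold change against stimulated control, with a median of 0.46, beside -0.0046 over all tested genes. Over all 222 listed, without the filter, 178 were positive and the median was 0.47. With a minimum of 1 CPM in 3 libraries, 60 of 77 were positive and the median was 0.27. At an unadjusted p under 0.05 there were 28 of 180 (15.6%, against 3.74% of all tested genes). All these genes were measured in the same libraries and may share reads, so they are not replicates and the counts carry no test. Against unstimulated ifih1mut larvae, which shares the stimulated libraries, 137 of 180 were positive and the median was 0.44. That median was 0.18 at the minimum of 1 CPM, 0.28 without A74 and 0.18 without set 3. The long-arm zf-C2H2 genes had medians of -0.05 and -0.05, and the SPRY genes 0.69 and 0.45. The SPRY medians rest on 25 genes. They were 0.39 and 0.24 at the minimum of 1 CPM, over 10 genes, and 0.51 and 0.21 without set 3. Without poly I:C the SPRY genotype median was 0.20, with 19 of 25 positive, beside 20 of 25 between stimulated genotypes. Poly I:C in control larvae gave the SPRY genes a median of 0.05, with 13 of 25 positive.

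NACHT genes elsewhere in the genome also had positive medians. The 88 tested outside the long arm had 0.34 and 0.39, with 76 and 77 positive, and the difference from the long arm was not tested. In control larvae the median effect of poly I:C on long-arm NACHT genes was -0.02, and without poly I:C the median genotype difference was 0.05.

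The size of the NACHT difference varied between the library sets. Each set gives only 1 library per group, so a set and its single libraries cannot be told apart here. On the log2(CPM + 0.5) scale, which understates changes of low genes, the median over tested long-arm NACHT genes between stimulated genotypes was 0.20 in set 1, 0.11 in set 2 and 0.45 in set 3. Positive differences numbered 123, 109 and 159 of 180. Without poly I:C the medians between genotypes were 0.03, 0.06 and 0.03 in sets 1, 2 and 3. In set 2 positive differences also numbered 109 without poly I:C, so that count was the same with and without stimulation. Between stimulated genotypes and without set 3, the median log2 fold change of the edgeR fit was 0.26, over 182 genes. Leaving out single libraries gave 0.33 without A72 to 0.80 without A78. Summed over the class, NACHT genes in the stimulated ifih1mut libraries reached 344, 211 and 321 CPM in sets 1, 2 and 3. Stimulated control libraries reached 298, 191 and 182.

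**Figure D3:**
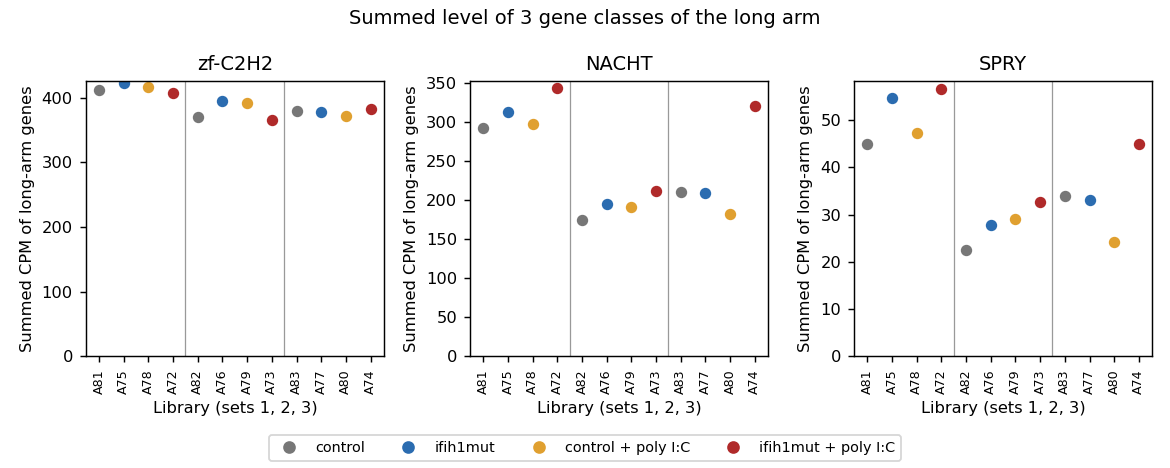
Summed CPM of the long-arm zf-C2H2, NACHT and SPRY genes in each library, ordered by library set (set 1, set 2, set 3) and coloured by group. NACHT sums in set 1 run from 293 to 344 CPM, above set 2 at 175 to 211. The stimulated ifih1mut library has the highest NACHT sum of each set, at 344, 211 and 321 CPM in sets 1, 2 and 3. The next highest are 313, 196 and 211.

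Long-arm expression differed between library sets. The arm took 0.225% to 0.235% of the counts in set 1, 0.191% to 0.203% in set 2 and 0.200% to 0.209% in set 3. Set 1 did not overlap the others. Group means were 0.207% ± 0.0183 in control and 0.208% ± 0.0151 in ifih1mut larvae (SD, n = 3 each). With poly I:C they were 0.209% ± 0.0176 in control and 0.216% ± 0.0170 in ifih1mut larvae. The means lay within these SDs, which include the differences between sets. Within each set the stimulated ifih1mut library had the highest share, at 0.235%, 0.203% and 0.209% in sets 1, 2 and 3. The next highest were 0.229%, 0.197% and 0.204%, and this order was not tested. The short arm took 1.86% to 2.06% of every library.

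Set 1 differed from sets 2 and 3 at 261 of 750 long-arm genes by edgeR (34.8%), against 16.6% of all tested genes. On the short arm 92 of 592 were called (15.5%). The long-arm calls were 177 higher (all genes 9%) and 84 lower (all genes 7.61%) in set 1. The median size of the log2 fold change was 0.56 on the long arm, 0.14 on the short arm and 0.15 over all genes. Genes were not matched for level here. Between unstimulated genotypes, with 0 calls on either arm, the same measure was 0.16, 0.068 and 0.085. Without A75 the long-arm count of set 1 calls was 142, and without A81 it was 153. Between sets 2 and 3 the median size was 0.26 on the long arm, 0.17 on the short arm and 0.18 over all genes. By calls, sets 2 and 3 differed at 18 long-arm genes (2.4%), under the 8.46% of all tested genes. In set 3, 12 were higher (all genes 4.92%) and 6 lower (all genes 3.54%). That count ranged from 4 without A82 to 36 without A79, and was also under 12 without A73, A74, A75, A76, A77, A78, A81 or A83.

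The set 1 calls fell in each of the 3 gene classes and also outside them. NACHT genes had 69 calls among 180 (38.3%), 58 of them higher in set 1. Zinc fingers had 99 calls among 279 (35.5%), 64 of them higher. SPRY genes had 11 among 25, 6 of them higher. Long-arm genes with no listed domain had 76 calls among 230 (33.0%), 43 of them higher. Those with another domain had 6 among 36 (16.7%), all higher. Outside the long arm, 28 of 88 NACHT genes (31.8%) were called, and 30 of 290 zf-C2H2 genes (10.3%).

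The direction changed along the arm. In the first 24 Mb beyond the boundary most calls were higher in set 1. The first 8 Mb had 27 higher and 16 lower (43% of 100 tested genes called). The next had 39 and 13 (44.4% of 117), and the third 27 and 12 (43.8% of 89). Median log2 fold changes there were 0.23, 0.46 and 0.25. From 24 to 32 Mb beyond the boundary the balance turned, with 5 higher and 20 lower (22.9% of 109 tested genes). The median log2 fold change was -0.31. From 32 to 40 Mb calls were 27 higher and 13 lower (38.8% of 103), but the median log2 fold change was 0.0014. From 40 to 48 Mb they were 52 higher and 8 lower (26.4% of 227), with a median of 0.21. The 5 tested genes beyond that gave 0 higher and 2 lower.

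**Figure D4:**
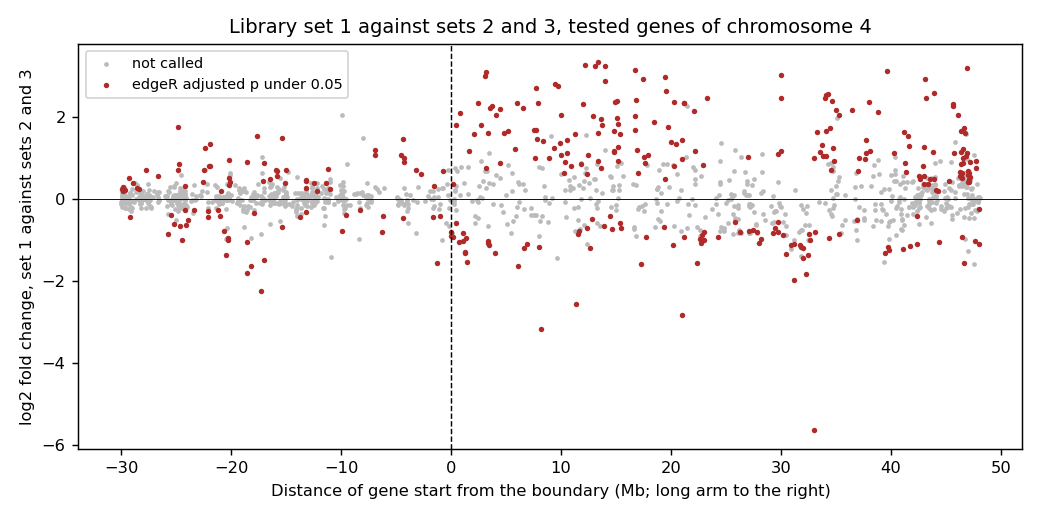
The log2 fold change of library set 1 against sets 2 and 3 for each tested chromosome 4 gene, against the distance of its start from the boundary in Mb, with genes at an edgeR adjusted p under 0.05 in red. The scatter is wider on the long arm than on the short arm (median size 0.56 and 0.14), and where it widens was not tested. Between 24 and 32 Mb beyond the boundary the calls are mostly below 0 (5 higher, 20 lower).

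Among the genes higher in set 1 was the NACHT gene si:ch211-129p6.2. It stood at 3.07, 3.59, 1.33 and 2.91 CPM in set 1 (A81, A75, A78, A72). The 8 other libraries lay between 0.165 and 0.535 CPM. The log2 fold change was 3.27 (SE 0.257, edgeR adjusted p = 1.35e-05). CABZ01015525.1 (NACHT) and si:dkey-4j21.2 (SPRY) start at the same base, 43999348, and overlap, so their reads may be shared. The first stood at 6.09 to 8.13 CPM in set 1, 0.0573 to 1.62 in set 2 and 1.23 to 1.94 in set 3.

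Genes lower in set 1 included crestin, a zebrafish marker of neural crest cells. It stood at 1.14, 1.38, 1.61 and 1.22 CPM in set 1, at 2.66, 3.25, 3.30 and 3.35 in set 2, and at 4.16, 4.68, 5.78 and 6.25 in set 3. The 3 sets did not overlap, and the log2 fold change of set 1 against the others was -1.59 (SE 0.128, edgeR adjusted p = 1.55e-05). In such bulk samples fewer cells of a type and less RNA per cell cannot be told apart. The zinc finger gene znf996 stood at 0.556 to 0.891 CPM in set 1 and at 1.47 to 2.40 in the other 8 libraries (log2 fold change -1.55, SE 0.180, edgeR adjusted p = 0.000204).

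Between sets 2 and 3, naa40, which encodes an N-terminal acetyltransferase, was lower in set 3. It stood at 9.13, 7.86, 8.07 and 8.16 CPM in set 2 and 6.30, 6.01, 5.54 and 4.65 in set 3 (log2 fold change -0.57, SE 0.107, edgeR adjusted p = 0.0124). It overlaps CABZ01043953.1, which moved the other way, from 7.71 to 7.77 CPM in set 2 to 10.1 to 11.6 in set 3 (log2 fold change 0.48, SE 0.0927, edgeR adjusted p = 0.0135). An unnamed assembled gene (63051729 to 63056515) stood at 4.34, 4.74, 1.44 and 2.23 CPM in set 2. In set 3 it stood at 0.756, 0.825, 0.0602 and 0 CPM, and in set 1 at 0 to 0.0520 CPM.

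Libraries of the same set and stimulation and of different genotype were compared as 6 pairs. Over 313 long-arm genes at a mean of at least 1 CPM, the median difference between the members of a pair ran from 0.142 to 0.251 in log2(CPM + 0.5). Between libraries of different sets it ran from 0.196 to 0.538, and the ranges of pairs and of different sets overlapped. Set 1 lay apart, at 0.356 to 0.538 from set 2 and 0.331 to 0.511 from set 3, while sets 2 and 3 lay 0.196 to 0.321 apart. Libraries of the same group differed by 0.241 to 0.528. On the short arm, over 521 genes, pairs differed by 0.0777 to 0.153 and libraries of different sets by 0.138 to 0.293. The arms were not matched for level in these distances. Genes at 1 to 5 CPM were compared by another measure, the median of a gene's differences over the 6 pairs. The median of this value over genes was 0.197 for 238 long-arm genes. It was 0.192 for 126 short-arm genes and 0.196 for 6526 genes in all.

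On the long arm 10 of 12 libraries were nearest to a library of their own set, against 12 of 12 on the short arm. For 5 of the 12 the nearest long-arm library was the pair partner. The exceptions to the set were stimulated control libraries. A79 of set 2 lay nearest to A83 of set 3, at 0.196, and A80 of set 3 nearest to A82 of set 2, at 0.201.

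In ms4a17a.9 pair members stood close together. The unstimulated pair of set 2 stood at 13.3 and 13.5 CPM and the stimulated pair at 6.96 and 6.60. In set 3 the order was the opposite, with 5.01 and 5.07 CPM unstimulated and 11.3 and 11.9 stimulated. Set 1 lay between 2.63 and 3.80 CPM throughout.

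Over the 6 pair means, the range of a long-arm gene had a median of 0.734 log2 units, against 0.433 on the short arm and 0.448 over 22700 genes. A range of at least 2 was found for 26 of 313 long-arm genes (8.31%), 5 of 521 short-arm genes (0.960%) and 2.10% of all. Among genes at 1 to 5 CPM, the counts were 25 of 238 long-arm genes (10.5%), 3 of 126 short-arm genes (2.38%) and 274 of 6526 genes in all (4.20%). On the long arm 13 of 56 NACHT genes had such a range (23.2%), 3 of 9 SPRY genes and 2 of 112 zf-C2H2 genes.

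Of these 26 genes, 21 were highest in a pair of set 1 and lowest in the unstimulated pair of set 2, and 5 followed other orders. In 23 the lowest pair was the unstimulated pair of set 2 (A82 and A76), and in 23 the highest was a pair of set 1. Over all 313 long-arm genes these counts were 96 and 143, and over 22700 genes 4025 and 6068. In A82 and in A76, 20 of the 26 lay under 0.5 CPM, against 1 in each library of set 1. The 26 genes were selected for a wide range in these same libraries, so a spread between pairs was built in. Summed, they reached 114 to 126 CPM in set 1, 11.7 and 13.6 in A82 and A76, and 27.1 to 67.2 in the other 6 libraries.

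Single members show how far the pair fell. si:dkey-159n16.2, a SPRY gene chosen after its values were seen, stood at 8.30, 13.5, 9.61 and 10.4 CPM in set 1. It stood at 0.153 and 0.234 CPM in A82 and A76, and at 3.18 and 1.09 in the stimulated pair of the same set. An unnamed assembled gene (60018314 to 60030432) had 4.29 to 7.39 CPM in set 1, 0.0191 in A82 and 0 counts in A76, where 3 counts would be 0.0413 CPM. si:ch73-170d6.2 had 2.99 to 4.43 CPM in set 1 and 0 counts in both A82 and A76, where 3 counts would be 0.0573 and 0.0413 CPM. BX005417.1, an antisense gene chosen after its values were seen, followed another order. It was highest in A83 and A77, at 22.5 and 24.9 CPM, and lowest in A82 and A76, at 0.573 and 0.592.

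**Figure D5:**
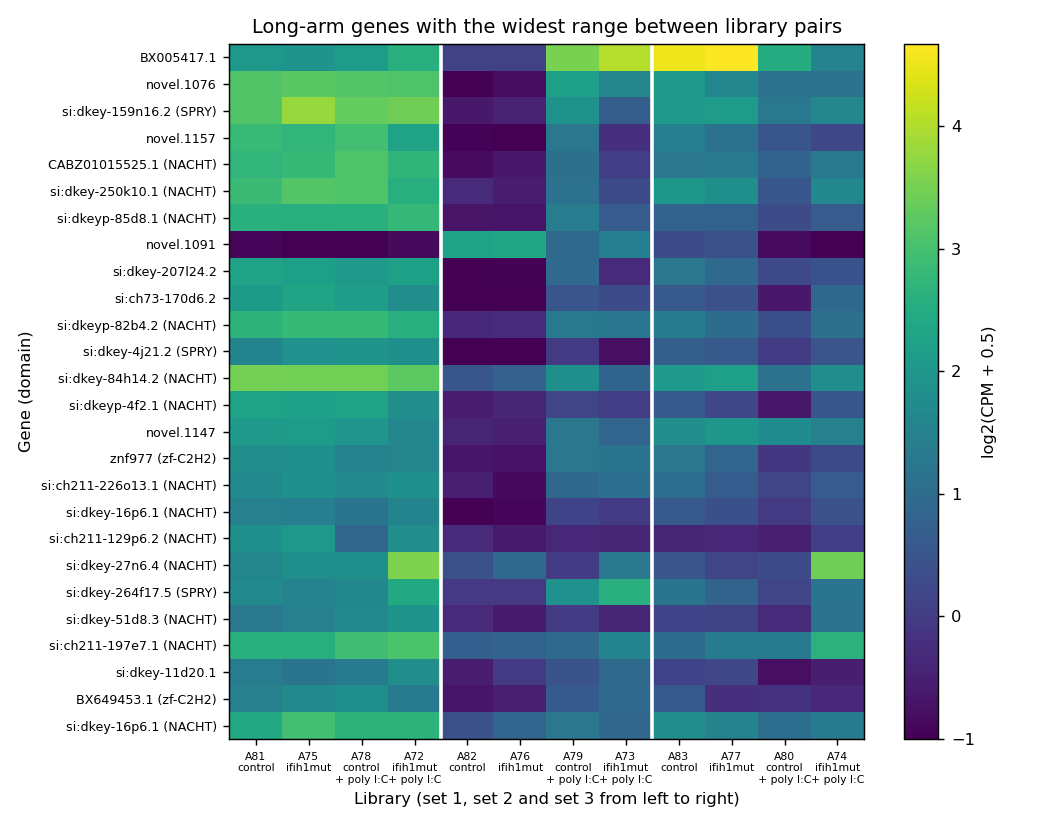
log2(CPM + 0.5) of the 26 long-arm genes with a range of at least 2 between library pairs, by library, with white lines between sets 1, 2 and 3. Set 1 is high for most of these genes, and the pair of A82 and A76 has the lowest mean for 23 of the 26 genes.

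The cause of the differences between sets and pairs was not tested.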

How the data were processed

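Per the file headers, the authors deposited 3 comparison tables with raw counts per gene for 6 libraries each, gene coordinates, lengths, descriptions and a domain column. The deposited tables also hold the authors' log2 fold changes and their p-values with adjusted p-values, used here only for a count of the authors' calls. Another 36 deposited columns of normalized values and 6 of group means were not used. The sources used here do not name the aligner, counter, strand setting, genome build or statistical test of the authors.

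The tables were joined into 32349 genes. Of 187002 counts listed more than once, 0 differed, and 6372 missing values in 1484 genes were set to 0. Groups came from the titles, and libraries are named by their numbers, since the columns carry no replicate numbers. Counts were filtered with filterByExpr (minimum count 10, minimum total 15), scaled with TMM factors. Tests were quasi-likelihood F-tests (edgeR 4.0.16, R 4.3.3). The fit had 1 coefficient per group, 12 libraries and 8 residual degrees of freedom, with Benjamini-Hochberg adjustment over 26508 genes and a threshold of 0.05. Set contrasts came from a fit with group and library set. CPM values used TMM-adjusted totals. Limits of 3 counts cover counting error only. The fits were tested on simulated data. There all genes shared a spread below the common spread of the main fit, and only genes above 1 CPM were changed. The simulated group tests held no differences between sets. That test therefore does not cover the low genes of the long arm.

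The members, gene types and tests were chosen with earlier results of these data known. Named genes were all called genes of a group contrast, the 3 smallest unadjusted p where none was called, up to 8 in each direction for set contrasts, the highest levels overall and per type, and those beside the boundary. Of these, the text gives examples. The grouping by domain was added after the files were seen, as were the library pairs. Alternatives were RLE size factors, DESeq2 1.42.0, no filter, a minimum of 1 CPM in 3 libraries, only the groups compared, a library set block, a boundary of 25000000 and leaving out each library. Alternatives added after seeing the data were leaving out each set, a block of 6 library pairs and DESeq2 with the set block.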

Additional observations from a re-analysis of the deposited data

Results flagged for a closer look

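BX927130.3, the NACHT pseudogene, was higher with poly I:C in all 3 sets of ifih1mut larvae and lower, by little, in all 3 sets of control larvae. Each difference is between single libraries of a set, which no label names as a pairing. On the log2(CPM + 0.5) scale the differences were 1.09, 0.70 and 1.67 in ifih1mut and -0.03, -0.11 and -0.26 in control larvae, which set the mean effects 1.29 apart. The edgeR test of the difference gave 1.93 (SE 0.463), with an unadjusted p of 0.00152 and an adjusted p of 0.339, so it did not pass.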

How the results depend on the processing

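No paired analysis was possible because the columns carry no replicate numbers of the titles. The set block and the pair block group libraries by library number instead, which no label names as a pairing. Between stimulated genotypes, 2 long-arm genes were called (0.6% of all tested genes). The set block called 6 (all genes 0.883%), and the block of 6 library pairs 10 (all genes 1.26%). A minimum of 1 CPM called 1, only the groups compared 0, and the fits without set 1, 2 or 3 called 0 each. DESeq2 called 9, and DESeq2 with the set block 14. For poly I:C in ifih1mut larvae, with 5 calls (all genes 0.69%), the set block gave 8 (all genes 1.04%). The counts were 3 at 1 CPM, 1 with only the groups compared and 0 without any of the sets. They were 12 by DESeq2 and 16 by DESeq2 with the block. DESeq2 with the set block also gave 1 call for ifih1mut against control and 2 for the difference of effects, where edgeR gave 0. Sets 2 and 3 differed at 30 genes by DESeq2 against 18. Set 1 differed at 173 of 392 tested genes at 1 CPM, against 261 of 750 in the main fit. The lower count at 1 CPM was thus a larger share of the genes tested. The share of all genes called at 1 CPM is not given here. DESeq2 was run without the filter, on all 1129 listed long-arm genes. The shares of all genes that it called are not given here, so its higher counts are not a result about the arm. Leaving out 1 library gave 0 to 4 calls between stimulated genotypes, 0 to 6 for poly I:C in ifih1mut larvae and 0 in the other 3 group comparisons. It gave 4 to 36 between sets 2 and 3 and 142 to 276 for set 1. A boundary at 25000000 raised the mean share of counts from 0.21% to 0.342%. Median levels moved from 0.428 CPM per kb to 0.206 over all listed and 0.354 over protein-coding genes on the long arm, and from 4.60 to 2.93 and 5.36 on the short arm. Over 45 results on single genes, 667 alternative values kept direction and side of the threshold, 145 kept direction but lost the call and 2 gained one; none reversed. Leaving out a whole set leaves 2 libraries a group. Most NACHT genes lie near 1 CPM or under, which limits single-gene tests.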

Other observations

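In the authors' deposited table for ifih1mut against control larvae with poly I:C, 7 of 1085 listed long-arm genes were called (0.645%), 6 of them higher, against 0.834% of all genes listed there. They were BX927130.3, si:ch211-22k7.9, parp11, ms4a17a.10, CT583728.22, ftr64 and si:ch211-209n20.1. In the authors' deposited table for poly I:C in control larvae, 1 of 1089 was called, CT583728.22, against 0.0221% of all genes. In the authors' deposited table for ifih1mut against control larvae without poly I:C it was 0 of 1091, against 0.0157% of all genes.

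psmb10, which encodes a subunit of the immunoproteasome, lies on the long arm at 77207693 to 77218637 and was picked with its values known. It stood at 7.96, 4.78 and 9.71 CPM in stimulated ifih1mut larvae (A72, A73, A74) and at 6.30, 2.04 and 1.29 in stimulated control larvae (A78, A79, A80). It was higher in ifih1mut in all 3 sets. The log2 fold change was 1.22 (SE 0.529), with an unadjusted p of 0.0412 and an edgeR adjusted p of 1.00. On the log2(CPM + 0.5) scale, the psmb10 genotype differences without poly I:C were 0.61, -0.07 and -0.06 in sets 1, 2 and 3. With poly I:C they were 0.31, 1.06 and 2.51. Another long-arm gene picked with its values known, gbp4, showed no such rise, at -0.16, -0.02 and -0.02 between stimulated genotypes.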
